A study of Homo sapiens and Mus musculus with 16 samples.

Results

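The expressed ZNF genes are the genes of the mRNA table whose symbol is ZNF followed by a number and that reached at least 0.2 FPKM in every one of the 4 mRNA libraries of SK-HEP-1 cells. FPKM is the number of fragments per kilobase of transcript, scaled to the mapped fragments of the library, so that levels of genes of different length can be set side by side. Of 526 ZNF genes among 22314 genes in all, 77 met this minimum, and 6376 genes with other symbols met it too. The rule uses the symbol and the level, not the treated to untreated ratio, but the set was proposed with earlier results of these data known, so levels and ratios alike are given as descriptions. SK-HEP-1 is an established human liver cancer cell line. Cultures received DMSO alone (U, untreated) or 0.5 mg/ml AcFBE, an ethanol extract of the fruiting body of the fungus Antrodia cinnamomea in DMSO (T, treated), for 2 or 4 h, which gave the libraries 2U, 2T, 4U and 4T. Each condition had 1 mRNA library, with no replicate within a time, so a ratio below compares a pair of libraries and no test was made at either time alone. The other 12 libraries of the series hold miRNAs and are not used here.

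Most proteins with the ZNF name bind DNA through C2H2 zinc fingers, short folds in which a pair of cysteines and a pair of histidines hold a zinc ion. Many of them carry a KRAB domain ahead of the fingers, which binds the corepressor TRIM28 and, through it, brings histone deacetylation and the SETDB1 methyltransferase to transposable elements and gene clusters. Others carry a SCAN domain, which joins such proteins in pairs, and some ZNF names belong to proteins that act on RNA, ribosomes or the cytoskeleton instead. Many KRAB genes lie in clusters of related copies on chromosome 19.

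The finger itself shows what the name stands for. The following coding DNA is the first C2H2 finger with the spacing cysteine, 2 residues, cysteine, 12 residues, histidine, 3 residues, histidine in 3 members that were lower with AcFBE at both times and in 3 that were higher, shown as 6 of the 11 genes named for their ratios in which such a finger was found. Each stretch lies in the coding part of an exon, is read 5′ to 3′ on the gene's strand from GENCODE transcripts, equals the GRCh37 genome (the hg19 build of the files) at its position, and has the codons of the cysteines and histidines in capitals.
ZNF282 (lower), chr7:148921281-148921343, plus strand: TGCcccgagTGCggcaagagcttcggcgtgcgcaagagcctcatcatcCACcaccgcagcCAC
ZNF296 (lower), chr19:45575528-45575590, minus strand: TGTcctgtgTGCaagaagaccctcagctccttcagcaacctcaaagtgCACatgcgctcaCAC
ZNF408 (lower), chr11:46726313-46726375, plus strand: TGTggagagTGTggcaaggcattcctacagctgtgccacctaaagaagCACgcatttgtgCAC
ZNF226 (higher), chr19:44680340-44680402, plus strand: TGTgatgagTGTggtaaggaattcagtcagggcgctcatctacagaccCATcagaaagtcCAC
ZNF232 (higher), chr17:5009479-5009541, minus strand: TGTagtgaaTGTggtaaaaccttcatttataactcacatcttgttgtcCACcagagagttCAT
ZNF32 (higher), chr10:44140023-44140085, minus strand: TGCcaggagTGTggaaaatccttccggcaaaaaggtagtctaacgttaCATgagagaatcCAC
The same frame of cysteine and histidine codons stands in all 6 stretches, with different bases between. G and C made up 66.7% of the bases in ZNF282, 54.0% in ZNF296 and 52.4% in ZNF408, and 49.2% in ZNF226, 36.5% in ZNF232 and 46.0% in ZNF32. Over all 11 such fingers the ranges overlap, with 49.2% to 66.7% in the 7 of lower genes and 36.5% to 55.6% in the 4 of higher genes. The whole transcripts overlap in GC content too, with 52.6% to 67.4% in the 8 genes named as lower and 36.8% to 60.2% in the 6 named as higher.

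The members' mRNAs were low. The median member stood at 1.66, 1.33, 2.53 and 1.22 FPKM in 2U, 2T, 4U and 4T, where the median of the other genes at the same minimum was 3.38, 3.59, 4.09 and 3.25 FPKM. Only 14.6% of the ZNF genes met the minimum, against 29.3% of all other genes, and 277 ZNF genes (52.7%) were listed at 0 in all 4 libraries, as were 48.1% of all other genes. A value of 0 is read only as a listing here, since it can also be a failed estimate, and MPHOSPH8 and SMARCAD1, genes of broad expression, were likewise listed at 0 in all 4. Among ZNF genes whose reading frame could be translated, 24 of 320 with a KRAB A box met it and 51 of 180 without one. The members just inside the minimum were ZNF589 (lowest value 0.2001 FPKM), ZNF226 (0.2084) and ZNF592 (0.245), and those just outside were ZNF768 (0.1947), ZNF707 (0.1925) and ZNF746 (0.191).

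The 5 members with the highest mean level are given first. ZNF593, whose yeast relative acts in the export of the large ribosomal subunit, was highest, at 214, 212, 346 and 163 FPKM in 2U, 2T, 4U and 4T. Its level thus hardly differed between the libraries of 2 h and was 2.12-fold lower with AcFBE at 4 h. ZNF207, or BuGZ, which binds BUB3 at kinetochores during mitosis, was listed at 36.2, 74.7, 32.6 and 71.2 FPKM in the same order. Both treated libraries of ZNF207 were above both untreated ones, by 2.06-fold at 2 h and 2.18-fold at 4 h. ZNF511 followed with 40.6, 36.4, 36.0 and 30.3 FPKM, and ZNF581 with 42.5, 21.2, 39.3 and 12.7 FPKM. ZNF581 was lower with AcFBE at both times, while ZNF511 kept within a narrow range. ZNF259, now named ZPR1, a zinc finger protein without C2H2 fingers that binds the translation factor eEF1A, was listed at 37.2, 14.6, 15.1 and 11.7 FPKM. Its value in 2U stood apart from the other 3 libraries.

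Over the 77 members the median treated to untreated ratio was below 1 at both times. The median log2 ratio of treated to untreated FPKM was -0.25 at 2 h and -0.59 at 4 h, and 49 members at 2 h and 57 at 4 h were below 0. With the mean of both untreated libraries as the reference the medians were -0.50 and -0.40, so the order of the times depends on the reference. The 4 h median was -0.97 with a minimum of 0.5 FPKM. It was -0.26 after dividing by the library median, which shifts all genes alike. The other genes at the same minimum had a median of 0.04 at 2 h and -0.29 at 4 h, with 48.9% and 60.4% of them below 0. The middle 50% of the members spanned -1.01 to 0.43 at 2 h and -1.37 to 0.06 at 4 h, so that single members differed widely in both directions. Against other genes of like level (10 level bins with like numbers of members, cut on their mean log2 FPKM, differences of bin medians weighted by members), the members were lower by a log2 difference of -0.50 at 2 h and -0.43 at 4 h.

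At 2 h, 20 members (26.0%) stood at or below 50% of untreated, against 17.7% of all 6453 genes at the minimum. In the other direction 8 members (10.4%) stood at or above 200%, against 20.9% of all genes. At 4 h, 30 members (39.0%) were at or below 50%, against 25.0% of all genes, and 4 (5.19%) were at or above 200%, against 14.9%. At both times together, 13 members were at or below 50% (16.9%, against 8.88% of all genes) and 2 were at or above 200% (2.60%, against 7.04%). Both treated libraries lay below both untreated ones in 33 members (42.9%, against 31.3% of all genes) and above them in 5 members (6.49%, against 22.9%). With time as a block, limma on log2 FPKM over both times (an alternative chosen after seeing the data, with 1 residual degree of freedom per gene and the times standing in for replicates) called 0 of the 77 members at an adjusted p under 0.05, against 0.341% of all genes, 15 lower and 7 higher. At an unadjusted p under 0.05 it had 12 members lower (15.6%, against 10.7% of all genes) and 2 higher (2.60%, against 8.97%). The fit without the block also called 0 members at an adjusted p under 0.05, against 0.248% of all genes, 9 lower and 7 higher. At an unadjusted p under 0.05 it had 14 members lower (18.2%, against 12.7% of all genes) and 2 higher (2.60%, against 10.2%). In each of the counts by ratio and by order lower values were more frequent, and higher values less frequent, among the ZNF genes than among all genes. In bulk RNA, fewer cells with a transcript and less of it per cell cannot be told apart.

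**Figure D1:**
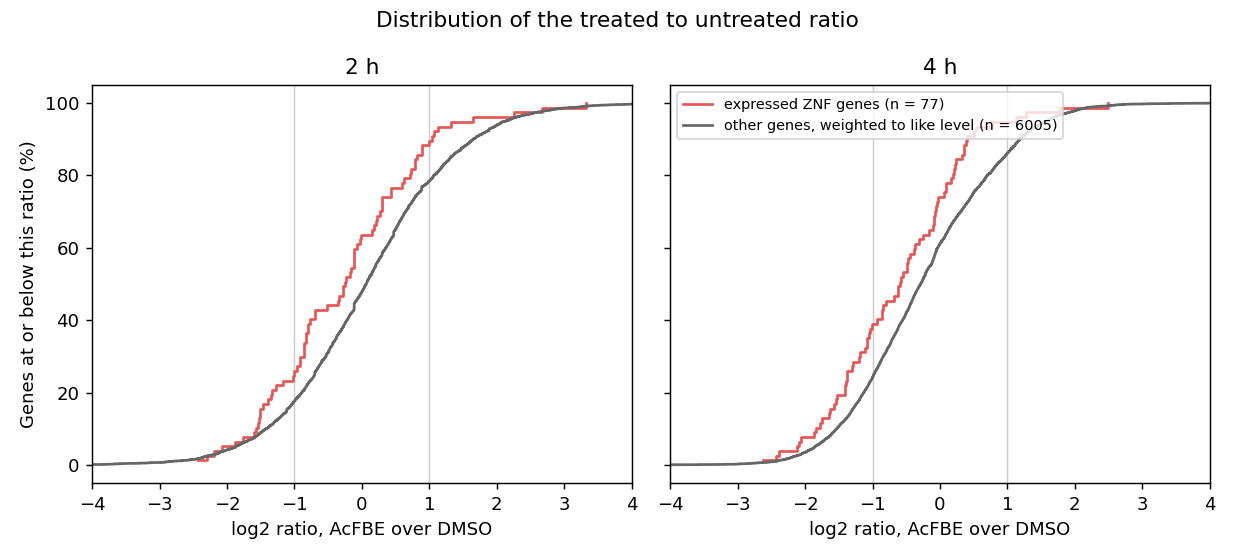
Share of genes (vertical axis, %) at or below each log2 ratio of AcFBE-treated to untreated FPKM (horizontal axis) at 2 h (left) and 4 h (right), for the 77 expressed ZNF genes (red) and for 6005 other genes weighted to the same distribution of level (grey), with thin lines at -1 and 1. The red curve runs above the grey one over most of its range at both times, with medians of -0.25 at 2 h and -0.59 at 4 h.

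Among the 52 members with a mean of at least 1 FPKM, 28 were lower at both times and 6 were higher at both times, while 18 had opposite signs at 2 and 4 h. Without this filter on the mean, 36.5% of the other genes at the minimum were lower and 27.2% higher at both times. ZNF408, a finger protein linked to inherited disease of the retinal vessels, was listed at 5.91, 2.26, 8.56 and 1.39 FPKM in 2U, 2T, 4U and 4T. This was 2.61-fold lower with AcFBE at 2 h and 6.17-fold lower at 4 h. ZNF282, a KRAB protein that represses the promoter of the leukaemia virus HTLV-1, was listed at 6.51, 2.23, 6.14 and 1.68 FPKM in that order. The untreated values of ZNF282 lay close together and both treated values lay well below them. ZNF672, with 13 finger matches, was listed at 7.27, 2.54, 6.32 and 2.37 FPKM, and ZNF574, with 18, at 13.6, 4.57, 7.94 and 3.73 FPKM. In both, each treated library was at or below 50% of its untreated partner. ZNF296 was listed at 2.29, 0.793, 3.17 and 0.742 FPKM, ZNF784 at 2.60, 0.941, 4.43 and 1.81 FPKM, and the KRAB gene ZNF584 at 3.09, 0.738, 2.17 and 0.956 FPKM. Few fragments stand behind these 3 genes at 2 h, by an estimate from transcript length and the step that 1 fragment makes in the 2 h values, with 17 in 2U and 6 in 2T for ZNF296, 23 and 9 for ZNF784, and 32 and 8 for ZNF584. ZNF185, which encodes a LIM protein of the actin cytoskeleton and holds no C2H2 finger match, was listed at 12.6, 2.76, 7.18 and 2.69 FPKM. In all 8 of these genes both treated libraries lay below both untreated ones, with log2 ratios from -2.19 (ZNF185) to -1.39 (ZNF408) at 2 h and from -2.62 (ZNF408) to -1.09 (ZNF574) at 4 h.

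Of the 77 members, 10 were higher with AcFBE at both times, and 6 of these had a mean of at least 1 FPKM. ZNF226, a KRAB gene of chromosome 19, was listed at 0.208, 1.33, 0.707 and 3.98 FPKM in 2U, 2T, 4U and 4T. Its log2 ratio was 2.67 at 2 h and 2.49 at 4 h, and that at 2 h rests on a 2U value of an estimated 2 fragments. ZNF330, a nucleolar protein without C2H2 fingers, was listed at 2.63, 3.98, 1.44 and 4.96 FPKM, so that both treated values lay above both untreated ones. ZNF207, above, is another of the 6, and the last 3 differed less at 4 h than at 2 h. ZNF428 was listed at 3.26, 10.2, 8.15 and 9.47 FPKM. ZNF232, with a SCAN domain, was listed at 2.50, 4.62, 4.71 and 5.45 FPKM. ZNF32 was listed at 0.435, 4.36, 2.98 and 3.16 FPKM. In all 3 the 2U value was the lowest and the other libraries lay nearer to each other, and the 2U value of ZNF32 corresponds to an estimated 2 fragments.

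**Figure D2:**
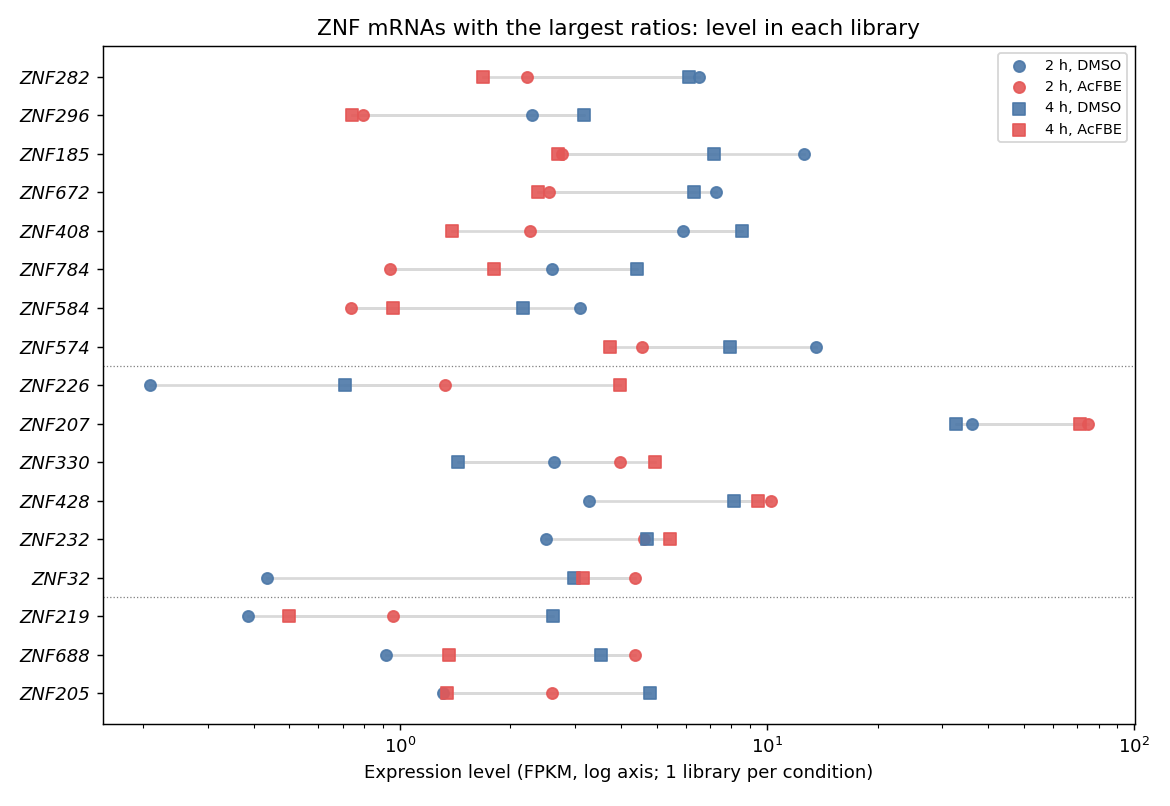
Level (FPKM, log axis) of 17 ZNF mRNAs with a mean of at least 1 FPKM, drawn for each library, circles for 2 h and squares for 4 h, blue for DMSO and red for AcFBE. The upper 8 genes were lower with AcFBE at both times, with red left of blue throughout, the next 6 were higher at both times, and the last 3 had opposite signs at 2 and 4 h. Each point is 1 library.

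The ratio at 2 h and the ratio at 4 h followed each other loosely over the members (Spearman rho 0.30 and Pearson r 0.32 over 77 genes, which share their libraries). Over the 6376 other genes rho was 0.41 and r was 0.42. Of the members 39 (50.6%) were lower at both times and 10 (13.0%) were higher at both times, against 36.5% and 27.2% of the other genes.

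**Figure D3:**
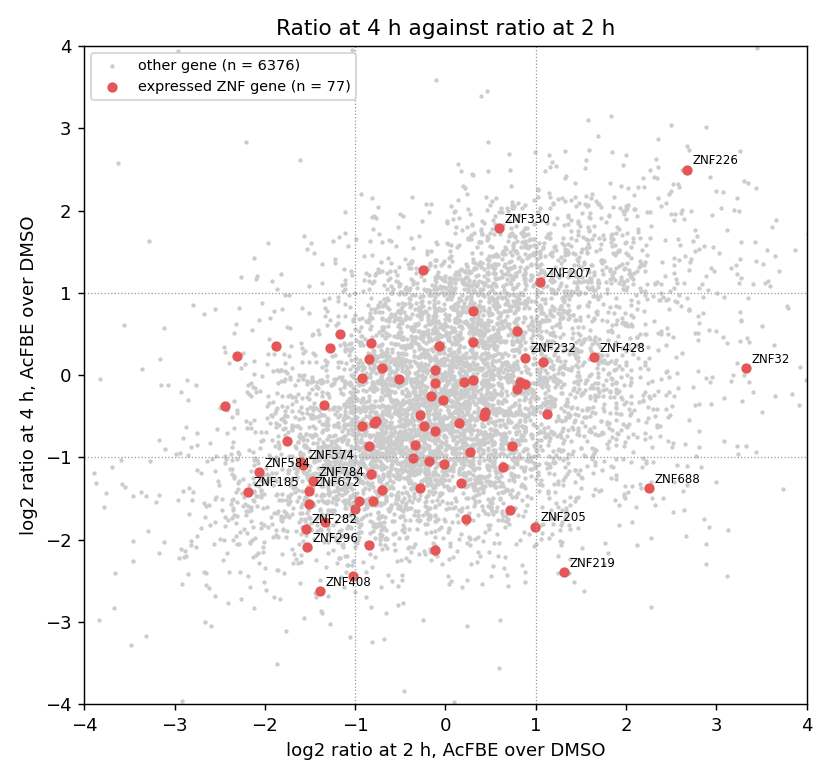
Log2 ratio of AcFBE-treated to untreated FPKM at 4 h (vertical) against that at 2 h (horizontal), with 77 expressed ZNF genes in red and 6376 other genes in grey, of which 41 lie outside the axes. Dotted lines mark -1 and 1. In the lower left corner, at or below -1 at both times, lie 13 ZNF genes, and in the upper right corner, at or above 1 at both times, lie 2.

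The members' ratio at 4 h moved with the GC content of the transcript, as it did over the other genes. Over the other genes the median log2 ratio at 4 h ran from 0.97 in the lowest of 10 GC bins to -1.13 in the highest. The members' GC content had a median of 55.2%, against 52.1% for the other genes and 42.0% for the ZNF genes below the minimum, and 19 of the 77 fell into the highest bin. At 4 h the members' ratio and GC content had a Spearman rho of -0.70 over 77 genes, and the other genes had a rho of -0.67 over 6217 genes with a matched transcript. At 2 h rho was -0.12 over the members and -0.22 over the other genes, whose medians ran from 0.73 to -0.29 and back to 0.00 across the bins.

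Split by the members' own GC content, the 26 members below 51.6% had a median log2 ratio of 0.02 at 4 h, against 0.44 for the other genes in that range. The 25 members between 51.6% and 60.4% had -0.59 against -0.73, and the 26 above 60.4% had -1.34 against -1.09. In that last range 20 members were at or below 50% of untreated at 4 h, and in the lowest range 1 was. The other genes in the same ranges had 55.9% and 6.10% of their number at or below 50%. When the members were set against other genes of like GC content and like level (5 GC bins by 3 level bins), the difference at 4 h shrank from -0.43 to -0.15, and that at 2 h from -0.50 to -0.33. Of those other genes, weighted in the same way, 32.8% were at or below 50% at 4 h and 19.6% at 2 h. What part GC content had in either difference was not tested.

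**Figure D4:**
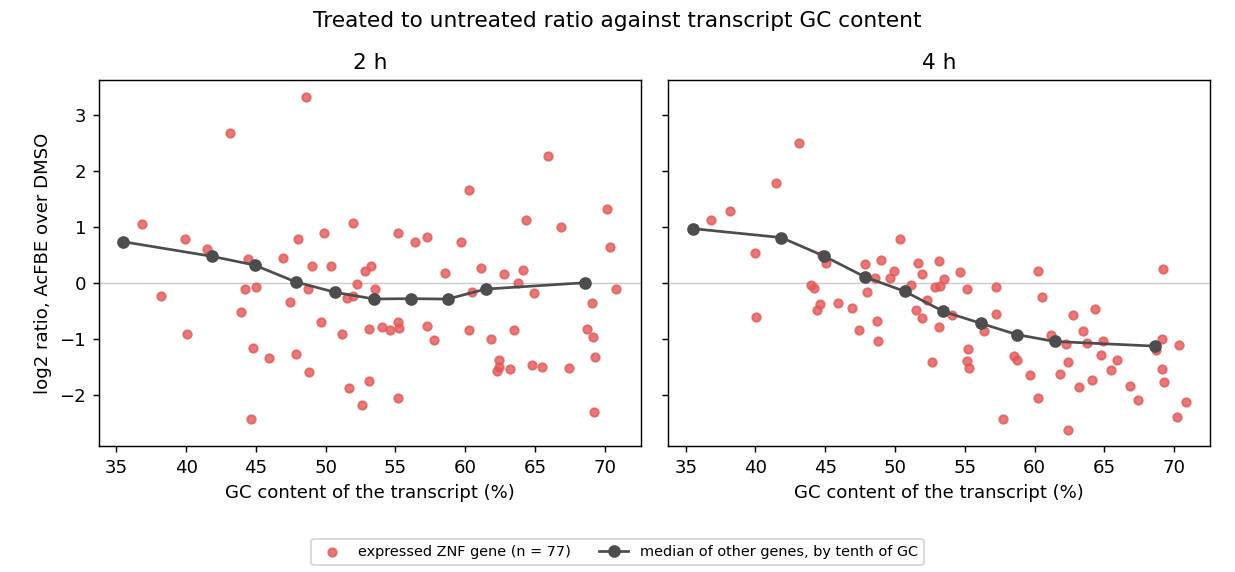
Log2 ratio of AcFBE-treated to untreated FPKM against GC content of the transcript (%) at 2 h (left) and 4 h (right), with 1 red point per expressed ZNF gene (77) and black points for the median of the other genes in each of 10 GC bins, drawn at the middle of its range. At 4 h the black line goes from 0.97 down to -1.13 and the red points go down with it.

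The members were then grouped by their domains. The reading frame of 75 members could be translated from the annotation, and 24 held a KRAB A box by similarity to that of ZNF10, 10 held a SCAN domain by similarity to that of ZNF24, and 6 held both. Members with a KRAB A box were lower in level, with a median of 0.853 FPKM in 2U against 2.32 for the 51 without. Their median log2 ratio was -0.23 at 2 h and -0.74 at 4 h, against -0.28 and -0.59 without the box, and 6 (25.0%) and 8 (33.3%) of the 24 were at or below 50% at the respective times, against 14 (27.5%) and 22 (43.1%) of the 51, where all genes had 17.7% and 25.0%. The 10 SCAN members had medians of 0.25 and -0.51, with 1 of them (10.0%) at or below 50% at 2 h and 3 (30.0%) at 4 h. The 34 members with 8 or more finger matches had medians of -0.61 and -0.82, the 23 with 4 to 7 had -0.28 and -0.86, and the 15 with 1 to 3 had -0.16 and -0.06, so that at 4 h the medians did not follow the number of fingers in order. Over 75 members the number of fingers and the ratio had a rho of -0.04 at 2 h and -0.21 at 4 h. The ranges overlapped in each of these splits. Median GC content was 53.0% with the KRAB A box and 58.5% without it. By finger matches it was 55.2% with 8 or more, 56.4% with 4 to 7 and 60.2% with 1 to 3. The part of GC content in these differences was not tested.

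On chromosome 19 lay 25 members, with median log2 ratios of -0.70 at 2 h and -0.86 at 4 h, and 20 of the 25 (80.0%) were below 0 at each time. The 52 on other chromosomes had medians of -0.14 and -0.58, with 29 (55.8%) and 37 (71.2%) below 0. Of the other genes at the minimum, on any chromosome, 48.9% and 60.4% were. The chromosome 19 members had a median GC content of 57.8%, against 53.4% for the others, and the part of GC content in this difference was not tested.

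**Figure D5:**
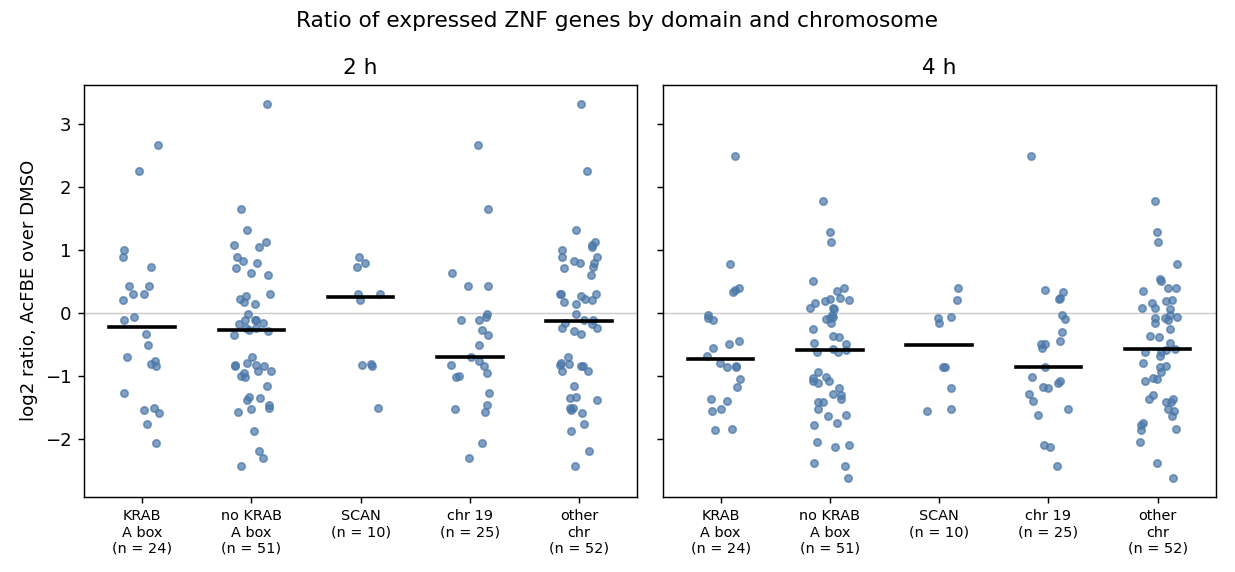
Log2 ratio of AcFBE-treated to untreated FPKM of each expressed ZNF gene (points, spread sideways to be seen) by KRAB A box, SCAN domain and chromosome at 2 h (left) and 4 h (right), with a bar at the median of each group. The groups overlap throughout, and the chromosome 19 genes have medians of -0.70 and -0.86.

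Members with a better known role, in repression or otherwise, were taken from a list of 29 ZNF genes, of which 13 met the minimum. Of these 13, 8 were below 0 at 2 h (61.5%, against 48.9% of the other genes) and 6 at 4 h (46.2%, against 60.4%). At or below 50% stood 2 of the 13 at 2 h (15.4%, against 17.7% of all genes) and 3 at 4 h (23.1%, against 25.0%). At or above 200% were 2 at each time (15.4%, against 20.9% at 2 h and 14.9% at 4 h). The shares at 50% and 200% thus lie near those of all genes. Several of them act on ribosomes or RNA. ZNF598, the ubiquitin ligase that marks collided ribosomes, was listed at 2.32, 2.04, 2.53 and 1.23 FPKM in 2U, 2T, 4U and 4T, so that 4T alone stood apart. ZNF622, which acts in the maturation of the large ribosomal subunit, was listed at 17.7, 9.96, 6.60 and 8.64 FPKM, with 2U above the rest. ZNF346, which binds double-stranded RNA, was listed at 2.48, 0.675, 1.19 and 1.52 FPKM, with a lower treated value at 2 h and a higher one at 4 h.

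Others of the list act on chromatin. ZNF274, which brings SETDB1 to ZNF genes, differed little, at 2.24, 2.20, 2.12 and 1.71 FPKM. ZNF410, an activator of the remodeller gene CHD4, was listed at 11.8, 5.26, 6.11 and 8.64 FPKM, and CHD4 itself at 1.79, 2.63, 1.88 and 2.12 FPKM. Thus ZNF410 was lower with AcFBE at 2 h and higher at 4 h, and CHD4 was higher at both, by a log2 ratio of only 0.18 at 4 h. The ZNF410 values are uncertain, since 95.4% of its transcript is shared with other genes, as given below. ZNF335, a component of a histone H3K4 methyltransferase complex, was listed at 1.66, 2.00, 3.38 and 1.77 FPKM, and ZNF592 at 0.245, 0.516, 0.582 and 0.652 FPKM. ZNF263, with both a KRAB A box and a SCAN domain, was listed at 1.43, 0.820, 2.82 and 0.976 FPKM, with both treated libraries below both untreated ones. ZNF202, a repressor of genes of lipid transport, was listed at 0.331, 0.408, 0.429 and 0.566 FPKM, and ZNF655 at 4.20, 2.22, 4.07 and 2.65 FPKM.

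The cofactors through which KRAB proteins act gave a mixed picture. Of a list of 21, 20 were in the table and 16 met the minimum, with median log2 ratios of 0.57 at 2 h and 0.25 at 4 h. At 2 h 2 of the 16 (12.5%, against 17.7% of all genes) were at or below 50% and 6 (37.5%, against 20.9%) at or above 200%. At 4 h 3 (18.8%, against 25.0%) were at or below 50% and 5 (31.2%, against 14.9%) at or above 200%. TRIM28, the corepressor that KRAB domains bind, was listed at 450, 133, 328 and 88.0 FPKM in 2U, 2T, 4U and 4T, so both treated values lay far below both untreated ones. EHMT2, a histone H3K9 methyltransferase, was likewise lower, at 10.5, 4.65, 11.1 and 2.38 FPKM. SETDB1 kept near one level, at 0.435, 0.460, 0.523 and 0.507 FPKM. The heterochromatin protein gene CBX1 was higher with AcFBE, at 0.611, 10.5, 6.21 and 12.5 FPKM, and the deacetylase gene HDAC1 at 1.24, 5.23, 2.27 and 7.0 FPKM. TRIM28 and EHMT2 have transcripts of 64.2% and 60.7% GC, and CBX1 and HDAC1 of 46.3% and 49.5%. Not every cofactor followed this order. EHMT1, with 57.0% GC, was higher with AcFBE at both times (log2 ratios of 1.04 and 0.47). CBX3, with 35.3% GC, was lower at 2 h (-0.65) and higher at 4 h (0.32). The part of GC content in the ratios of the cofactors was not tested.

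Related finger families were small at this minimum. Of 78 genes named ZFP, ZBTB, ZSCAN or ZKSCAN with a number, 13 met it, with median log2 ratios of -0.33 at 2 h and -0.68 at 4 h. At or below 50% were 2 of them at 2 h (15.4%, against 17.7% of all genes) and 5 at 4 h (38.5%, against 25.0%). The 7 ZBTB genes among them had medians of -0.70 and -1.19. The 3 KLF genes had 0.47 and -1.64, and the 2 SP-numbered genes, SP100 and SP140, which are nuclear body proteins rather than C2H2 factors, had 2.15 and 0.55. For scale, 74 ribosomal protein genes had -0.22 and 0.38.

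ZNF genes near the minimum came and went between libraries. Of 118 ZNF genes at or above 0.2 FPKM in 2U, 31 (26.3%) were below it in 2T, against 16.3% of the other genes. Of 96 at or above it in 2T, 9 (9.38%) were below it in 2U, against 7.82% of the other genes. At 4 h, 33 of 154 in 4U (21.4%) were below it in 4T, against 9.22% of the other genes, and 48 of 169 in 4T (28.4%) were below it in 4U, against 11.2%. These genes are not among the 77, and at 4 h more of them were gained than lost. The same held for the other genes, with 1074 gained and 866 lost. The shares were not matched for level, and genes of lower level lie nearer to the minimum.

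The libraries of the same treatment differed too. The median log2 ratio of 4U over 2U was 0.40 over the members and 0.22 over the other genes, and that of 4T over 2T was -0.02 and -0.03. At 4U over 2U 19 members (24.7%) were at or above 200%, against 22.3% of all genes, and 6 at or below 50%, against 8.69%. At 4T over 2T 6 members were at or above 200% and 2 at or below 50%, against 6.17% and 4.83% of all genes. The middle 50% of the members spanned -0.16 to 0.98 for 4U over 2U and -0.36 to 0.37 for 4T over 2T, and time, library and the way the values of each time were made cannot be told apart there.

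The low values of 2 h and 4 h also differ in form. Those of 2 h show how few fragments stand behind them, and those of 4 h give no such estimate. Among genes between 0.2 and 2 FPKM in both libraries of 2 h, 34.4% of 2321 ratios were a ratio of whole numbers up to 12 (within 0.0005 of the value) times one constant, against 3.28% of 3897 at 4 h. At 2 h the values of low genes thus stand on steps, as values made from whole fragments would, and the libraries of 4 h hold no value between 0 and 0.2 FPKM where 2U holds 2656 and 2T holds 1173. The sources used here give 1 description for the values of both times and none of how the times may have differed. Genes above 0 numbered 9550 in 4U and 9773 in 4T, the gene numbers that the paper lists for these libraries. In 2U and 2T they numbered 10691 and 8454, which differ from the paper's numbers, where 2T has more genes than 2U. By those steps and the transcript lengths the median member had an estimated 20 fragments in 2U and 23 in 2T, and 40 members had 20 or fewer in 2U. The 37 members above 20 had a median log2 ratio of -0.83 at 2 h and -0.93 at 4 h, and 1 of them was at or above 200% at 2 h (2.70%, against 14.0% of the other genes under the same filter). This filter is set on the denominator of the 2 h ratio, and it lowers the 2 h median of the other genes as well, from 0.04 to -0.20. With a mean of over 20 estimated fragments in 2U and 2T instead, 35 members had medians of -0.28 at 2 h and -0.62 at 4 h, where the other genes had -0.03 and -0.36, and at 2 h 31.4% of these members were at or below 50% and 8.57% at or above 200%, against 18.9% and 20.2% of the other genes. Fragments amplified by PCR are not independent molecules, and no interval is given. The fragment estimates are rough. The size of 1 fragment was read from the 126 of 1034 genes that lay at its commonest value. It implies fewer fragments in 2U than the mapped reads that the paper lists for 2U. For ZNF324 the ratio was that of 11 fragments in 2U to 7 in 2T, where the estimates were 17 and 11. Per library, 7281 to 9773 genes reached 0.2 FPKM.

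Sequence shared with other genes touched some members. By 35-base words, the length of the reads, matched on either strand, the median member shared 4.09% of its transcript with an annotated transcript of another gene. Of the 77, 15 shared over 20%. Among them were ZNF410 with 95.4%, ZNF593 with 89.4%, ZNF511 with 59.33%, ZNF263 with 49.35% and ZNF32 with 27.38%. The values of these genes, and of the genes that share their words, are uncertain. Of 13 hepatocyte markers 9 were listed at 0 in every library, ALB and APOB among them. The 3 that met the minimum were KRT8 (1291 to 3439 FPKM), KRT18 (4581 to 6254 FPKM) and SERPINA1 (8.59 to 18.7 FPKM). Of 10 endothelial or mesenchymal markers 5 were listed at 0 in every library, the endothelial genes PECAM1, VWF, CDH5, KDR and TEK, and 3 met the minimum, VIM (6465 to 13625 FPKM), CAV1 (115 to 260 FPKM) and THY1 (25.5 to 55.6 FPKM), while COL1A1 and S100A4 were at 0 in some libraries and at most 1.68 FPKM in the others.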

How the data were processed

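Poly(A) RNA of SK-HEP-1 cells, 1 library per condition, was reverse transcribed, amplified by PCR with a protocol adapted from single-cell work and sequenced on SOLiD 3 in reads of 35 bases. The authors aligned to hg19 and deposited FPKM per gene symbol. The study's Results name Bowtie and Cufflinks for the mRNA reads, with 2 mismatches allowed. The submitters' processing notes name TopHat and Cufflinks, without versions, so which aligner made the deposited FPKM is unclear. How strand and reads of several positions were counted is not given in the sources used here.

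Genes were named by a rule. Members needed a mean of at least 1 FPKM for the named falls, rises and opposite signs. The 8 with the largest fall and the 8 with the largest rise at both times were taken (only 6 were higher at both). Their order was by the smaller of a member's absolute log2 ratios, so the weaker change set it. The 3 with the largest opposite signs and the 5 with the highest mean were added. So were the 3 on either side of the minimum and a list of known roles. The members and lists were chosen with earlier results of these data known. Ratios used no pseudocount. Transcript length, GC content and sequences came from GENCODE release 44 on GRCh37 (1 transcript per gene, 6294 of 6453 genes and all 77 members matched, ZNF193, ZNF259 and ZNF271 through current names). KRAB and SCAN were called from Biopython 1.88 local alignments at scores of at least 60 and 150. The level comparison was tested on simulated shifts. Python 3.11.15 with numpy 2.4.6, pandas 2.3.3, scipy 1.17.1 and matplotlib 3.10.9 was used. Alternatives covered the minimum, the pseudocount, the scaling, the reference library, the set of symbols and the bins. The miRNA tables were not used. No replicate exists within a time. Treated and untreated libraries were compared over both times, with time as a block, by limma 3.58.1 (R 4.3.3, mean-variance trend, Benjamini-Hochberg adjustment over 6453 genes), tested on simulated data.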

Additional observations from a re-analysis of the deposited data

Results flagged for a closer look

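The 3 members with a mean of at least 1 FPKM whose ratios differed most between the times with opposite signs are given here. ZNF219, a C2H2 partner of SOX9 in cartilage, had a log2 ratio of 1.32 at 2 h and -2.39 at 4 h, from 0.385, 0.959, 2.61 and 0.497 FPKM in 2U, 2T, 4U and 4T. ZNF688, a KRAB gene, had 2.26 and -1.38, from 0.915, 4.37, 3.54 and 1.36 FPKM. ZNF205, also a KRAB gene, had 0.99 and -1.84, from 1.31, 2.60, 4.81 and 1.34 FPKM. In all 3 the untreated library of 4 h was above the untreated library of 2 h, and the 2U values correspond to an estimated 5, 5 and 11 fragments. Their transcripts have 70.2%, 65.9% and 66.9% GC. The difference between the times was not tested, since each condition had 1 library.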

How the results depend on the processing

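Of 70 alternative values of these results, 44 lay within 1.5 times the reported one. Of the 70, 38 are medians or differences, of which 0 changed sign, and 32 are counts. No replicate error exists to set these moves against. The median at 2 h was -0.44 with a minimum of 0.5 FPKM, -0.42 over 136 ZNF genes above 0 in both libraries and -0.15 with a pseudocount of 1 FPKM. The median at 4 h was -0.97 with a minimum of 0.5 or of 1 FPKM, -0.34 with a pseudocount of 1 FPKM and -0.26 after dividing by the library median, which moves the median of all genes by 0.33 at 4 h (TMM scaling moves it by 0.19). After that division 20 members and 14.8% of all genes were at or below 50% at 4 h. With the mean of both untreated libraries as the reference the medians were -0.50 at 2 h and -0.40 at 4 h, so their order turned. Against other genes the 4 h difference was -0.15 in bins of GC by level and -0.13 in bins of GC, both added after seeing the data. The counts moved with the fold and the minimum. At 2 h, 33 members (42.9%, against 29.2% of all genes) were lower by at least 1.5-fold and 7 (9.09%, against 7.70%) by at least 3-fold, and 18 (23.4%, against 31.1%) and 4 (5.19%, against 10.8%) were higher. At 4 h, 12 (15.6%, against 9.36%) were lower and 2 (2.60%, against 5.45%) higher by at least 3-fold. With a minimum of 1 FPKM (36 members), 10 (27.8%, against 17.4%) were at or below 50% and 3 (8.33%, against 18.3%) at or above 200% at 2 h, and 18 (against 26.5%) were at or below 50% at 4 h. Among the 37 members above 20 estimated fragments in 2U, added after seeing the data, the medians were -0.83 at 2 h and -0.93 at 4 h, 1 was at or above 200% at 2 h (2.70%, against 14.0% of other genes under the same filter), and 18 were at or below 50% at 4 h (48.6%, against 28.7%). That filter uses the 2U value, the denominator at 2 h. With a mean of over 20 fragments in 2U and 2T (35 members, also added), 11 (31.4%, against 18.9% of other genes) were at or below 50% and 3 (8.57%, against 20.2%) at or above 200% at 2 h, and 16 (45.7%, against 27.1%) were at or below 50% at 4 h. No fit by replicate number was made, since the mRNA libraries share 1 number. With time as the block, added after seeing the data, limma called 0 of 77 members at an adjusted p under 0.05 (lowest 0.0813), and 0 without the block (lowest 0.0979).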

Other observations

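Chosen after its values were seen, ZNF580 was listed at 22.3 FPKM in 2U and at 4.53, 2.63 and 3.10 FPKM in 2T, 4U and 4T. Its annotated span on chromosome 19 (GRCh37, 56146382 to 56154836) overlaps that of ZNF581 (56146825 to 56156989) on the same strand, and by 35-base words ZNF580 shared 10.6% of its transcript with another gene and ZNF581 shared 0%. ZNF76, ZNF296 and ZNF446 list the same value, 2.2896 FPKM, in 2U.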
